A study of Mus musculus and Homo sapiens with 28 samples.

Results

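The genes described here are the core of cytosolic DNA sensing, followed by RNA sequencing in 2 renal carcinoma systems. They were chosen by name: Cgas, Tmem173 (STING), Tbk1, Ikbke, Irf3, Zbp1 and Aim2 in mouse, 7 of 46078 rows of the mouse table, and MB21D1 (the older symbol of human cGAS), TMEM173, TBK1, IKBKE, IRF3, ZBP1, AIM2 and IFI16 in human, 8 of 56269 rows. Every one of these genes was present in its table and entered the tests. The mouse libraries came from Renca cells, a mouse renal carcinoma line, injected under the skin of the back in Matrigel. Treatment began once a tumour could be felt at about 100 mm3. There were 5 libraries labelled SETD2 KD (knockdown of the histone methyltransferase SETD2) from mice given VE822, an ATR kinase inhibitor, by mouth at 60 mg/kg on 5 days a week, and 6 labelled SETD2 KD from untreated mice. The libraries labelled WT numbered 6 with VE822 and 7 untreated. The sources used here name no mouse strain, age, knockdown construct or time of collection. The human libraries came from 786-O, an established clear cell renal carcinoma line with WT genotype in the labels, with 2 libraries given a CHK1 inhibitor at 25 nM for 48 h and 2 left untreated, in 2 experiments. The sources name this compound as LY2606368 in one place and LY2603618 in another, so it is called the CHK1 inhibitor here. The question addressed was how ATR or CHK1 inhibition, with or without SETD2 loss, changes expression of the DNA sensing machinery.

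DNA in the cytosol is bound by cGAS, which makes the second messenger cGAMP. This messenger binds STING on the endoplasmic reticulum, and STING then moves to the Golgi and recruits the kinase TBK1, or its relative IKK-epsilon (Ikbke), which phosphorylates IRF3. Phosphorylated IRF3 enters the nucleus and switches on interferon-beta and chemokine genes. AIM2 binds cytosolic DNA and assembles an inflammasome, human IFI16 binds DNA and assists STING, and ZBP1 binds Z-form nucleic acid and signals through RIPK3. Signalling through cGAS, STING, TBK1 and IRF3 runs largely on binding and phosphorylation, which RNA levels do not measure. ATR and CHK1 restrain replication stress, and their inhibition can leave damaged DNA outside the nucleus.

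Setd2, the targeted gene, went against the genotype label in untreated tumours. It lay between 10.70 and 10.88 in the libraries labelled SETD2 KD untreated, against 10.74 to 10.91 in those labelled WT untreated. These values are on the rlog scale, a regularised log2 scale. A difference of 1 on it is a factor of 2 in the regularised level, not necessarily in raw counts. Setd2 was lower with VE822 under either label, at 9.42 to 9.96 (SETD2 KD) and 9.58 to 10.28 (WT), so the genotype names below are only the libraries' labels. Markers of renal epithelium, macrophages and endothelium were present in every mouse group. Library SETD2 KD VE822 4 stood apart from its group: Igf2 was 6.37 there, against 10.82 to 11.35 in the other libraries of that group and 5.76 to 6.63 in untreated tumours. Skeletal muscle markers averaged 9.21, 7.01 and 7.66 in libraries WT VE822 1, 2 and 4 and 6.27 in WT untreated 4, against 3.78 to 5.12 in the remaining 20. For core genes whose call ends or whose direction turns without these 5 libraries, and for pathway lists whose counts change, values without them are given too, here or with the processing alternatives. The labels do not say whether each library is a separate animal or culture, so p-values measure the spread between libraries only.

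The level of each transcript was first set on a per-length scale (mean rlog minus log2 of the exonic length in kb), the only scale here on which genes can be compared with each other. In libraries labelled SETD2 KD VE822 the order was Tmem173 (10.16), Zbp1 (8.86), Tbk1 (8.61), Irf3 (8.13), Aim2 (7.04), Ikbke (6.27) and Cgas (4.08). In WT untreated libraries it was Tmem173 (10.07), Tbk1 (8.77), Irf3 (8.19), Zbp1 (7.81), Aim2 (6.97), Ikbke (6.14) and Cgas (3.90). STING RNA was thus the highest of the 7 in each of the 4 groups and Cgas RNA the lowest. Zbp1 stood below Tbk1 and Irf3 in untreated tumours under either label and above Irf3 in VE822 tumours under either label. Exonic length is the union over GENCODE transcripts, 9018 bases for Ikbke and 2741 to 4126 for the other 6, and it lowers the value of a gene whose union exceeds its main transcript. Differences between genes on this scale were not tested.

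Promoter windows are shown for Cgas, which opens the pathway, for Tbk1, whose RNA moved with its chromosome, and for Cxcl10, an interferon-stimulated chemokine at the pathway's end. Each window runs from 250 bases before the start site to 50 after it, 5′ to 3′ on the gene's own strand (minus for all 3), from RefSeq on GRCm38.p6. They lie at chr9:78443188-78443487, chr10:121586745-121587044 and chr5:92348840-92349139 for Cgas, Tbk1 and Cxcl10. Capitals mark the core of the interferon-stimulated response element (ISRE), GAAANNGAAA on either strand, to which interferon-activated factors bind.
Cgas: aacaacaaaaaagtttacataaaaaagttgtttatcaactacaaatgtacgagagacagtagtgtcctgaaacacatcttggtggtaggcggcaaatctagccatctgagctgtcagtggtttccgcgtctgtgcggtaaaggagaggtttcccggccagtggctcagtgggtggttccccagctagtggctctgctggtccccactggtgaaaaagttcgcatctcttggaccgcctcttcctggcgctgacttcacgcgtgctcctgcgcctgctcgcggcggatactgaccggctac
Tbk1: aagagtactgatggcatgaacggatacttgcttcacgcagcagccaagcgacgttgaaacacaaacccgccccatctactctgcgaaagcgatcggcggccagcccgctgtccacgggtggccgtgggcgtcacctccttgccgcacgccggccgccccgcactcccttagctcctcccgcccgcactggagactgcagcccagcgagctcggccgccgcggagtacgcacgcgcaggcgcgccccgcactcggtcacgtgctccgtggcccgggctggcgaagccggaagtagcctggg
Cxcl10: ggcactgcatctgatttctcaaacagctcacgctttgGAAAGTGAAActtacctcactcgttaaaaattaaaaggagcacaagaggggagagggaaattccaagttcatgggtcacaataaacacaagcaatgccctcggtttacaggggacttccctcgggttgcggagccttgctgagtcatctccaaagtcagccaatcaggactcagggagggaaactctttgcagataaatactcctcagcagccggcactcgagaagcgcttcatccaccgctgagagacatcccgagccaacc
The ISRE core was found in 1131 of 32851 mouse promoter windows (3.44%). It was found in 0 of the 5 windows available for the 7 genes (Cgas, Tbk1, Ikbke, Irf3 and Aim2), and Zbp1 and Tmem173 have no window in the table used. Among 11 of the 14 pathway output genes with a window, 5 held it, namely Cxcl10, Ifit1, Ifit3, Isg15 and Oas1a. The palindromic GAS core TTCNNNGAA, a site class for interferon-gamma responses, was in 8.30% of all windows and in 0 of the same 5. It was in 2 output genes, Ifit2 and Oas1a. No match says only that these letters are absent from these windows.

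**Figure D1:**
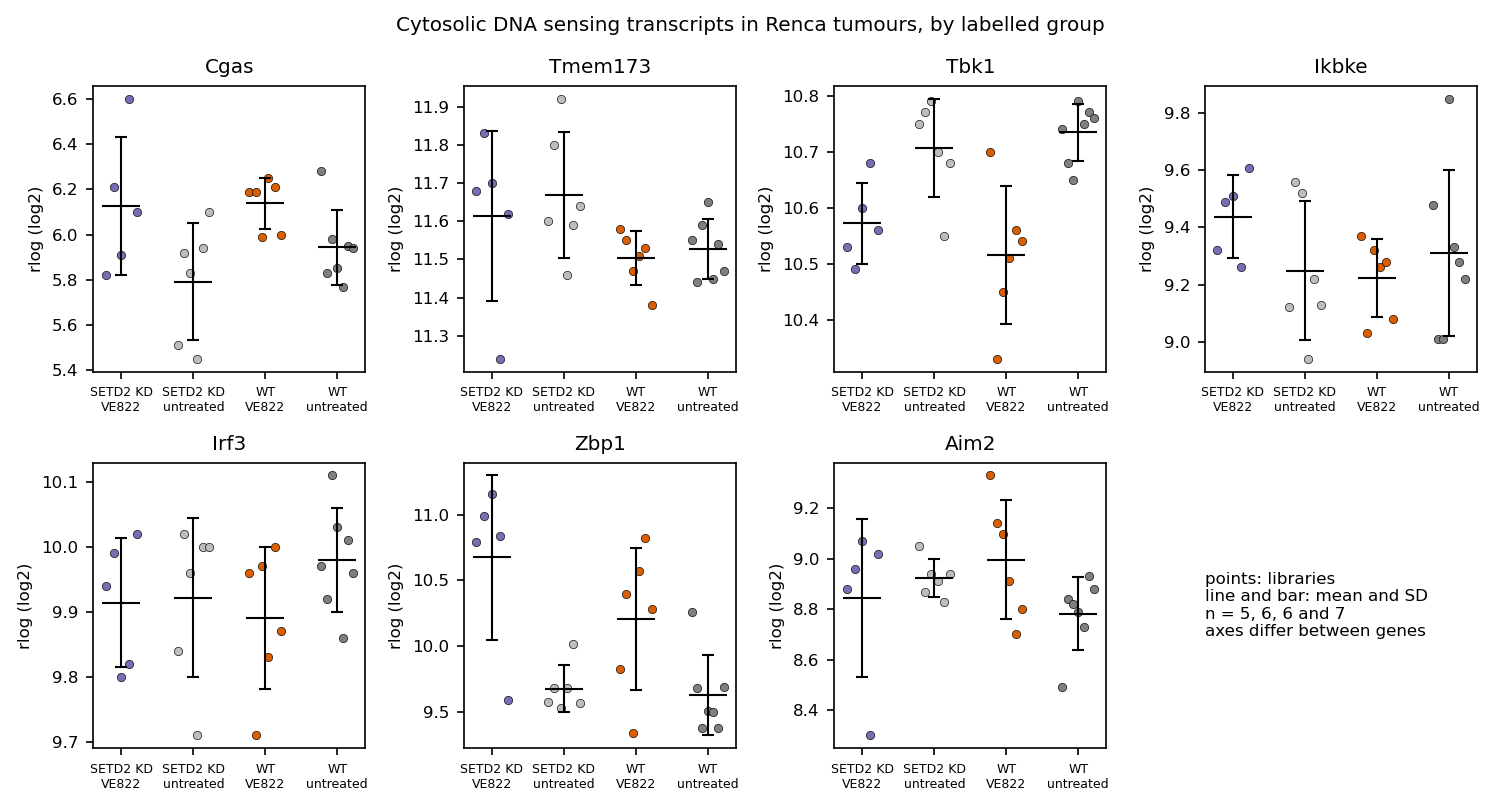
RNA levels of the 7 mouse genes in 24 Renca tumour libraries, 1 panel per gene, with rlog values (log2) on the vertical axes and the labelled groups on the horizontal axes. Points are libraries and lines with bars are means and SD. Zbp1 separates most VE822 libraries from untreated ones under either label, while the Tmem173, Irf3 and Ikbke groups overlap throughout.

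Zbp1 (ENSMUSG00000027514), the Z-nucleic acid sensor, rose with VE822 under both labels. It was 9.59, 10.79, 10.84, 10.99 and 11.16 in libraries labelled SETD2 KD VE822, against 9.53, 9.63 and 10.02 (lowest, median and highest of 6) in SETD2 KD untreated libraries. Of the 5 VE822 libraries, 4 were above every untreated one and SETD2 KD VE822 5 lay among them. The difference was 1.00 ± 0.24 (log2, SE; limma adjusted p = 0.00413), and it passed without each of the 11 libraries in turn (0.88 to 1.27). Zbp1 was the only 1 of the 7 called in this comparison, 1 higher and 0 lower, where limma called 22.2% of 15916 genes, 10.6% higher and 11.6% lower. With chromosome medians removed, 2052 genes were higher and 1347 lower, against 1688 and 1852 in the deposited scaling. In bulk tumours, a larger share of cells that express a gene and more RNA per cell cannot be told apart.

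Among libraries labelled WT, Zbp1 was 9.34, 10.34 and 10.82 (lowest, median and highest of 6) with VE822, against 9.38, 9.51 and 10.26 (7 libraries) untreated. Here 4 of 6 VE822 libraries were above every untreated one, and WT VE822 3 was below them all. The difference was 0.58 ± 0.22 (limma adjusted p = 0.0456), close to the threshold. The call held without WT VE822 1, WT VE822 3 or WT untreated 1 and ended without any other single library (0.45 to 0.75, adjusted p = 0.00808 to 0.122). It also ended without the 5 libraries that stood apart (0.50, adjusted p = 0.222) with no filter on low values (adjusted p = 0.0828) and with the median of genes within 5 Mb removed (0.50, adjusted p = 0.0872). In this comparison 1 of the 7 genes was called higher and 1 lower, against a background of 34.7% of genes, 17.2% higher and 17.5% lower (3259 and 2036 genes with chromosome medians removed, against 2737 and 2793). The VE822 difference in Zbp1 was 0.42 ± 0.33 larger under the SETD2 KD label than under the WT label, with a 95% interval of -0.25 to 1.10 (limma interaction, adjusted p = 0.697), so a difference between the labels was not shown.

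T cell markers moved with Zbp1. Of 7 T cell markers, 7 rose with VE822 in SETD2 KD libraries and 6 in WT libraries, as did 5 of 5 and 4 of 5 NK cell markers, and 5 of 6 dendritic cell markers under each label, where 10.6% (SETD2 KD) and 17.2% (WT) of all genes were higher. Without the 5 libraries that stood apart these counts were 6 and 4 T cell, 5 and 3 NK cell and 5 and 3 dendritic cell markers, where 2420 and 2227 of 15916 genes were higher. The summed T cell markers were 8.61 to 9.58 (log2) with VE822 against 7.73 to 8.16 untreated under the SETD2 KD label, and 8.07 to 9.38 against 7.58 to 8.38 under WT. No T cell, NK or dendritic marker was at 0 in any mouse group. The summed NK markers were 6.44 to 7.05 with VE822 against 5.88 to 5.92 (SETD2 KD), and 5.95 to 7.18 against 5.71 to 6.20 (WT). The summed dendritic cell markers were 10.37 to 10.96 against 9.51 to 10.19 (SETD2 KD), and 10.21 to 10.96 against 9.01 to 10.01 (WT). Macrophage markers did not rise: 0 of 7 were higher and 2, Mrc1 and Cd68, were lower under each label. Over all genes, 11.6% (SETD2 KD) and 17.5% (WT) were lower. Renal epithelial markers were lower, 4 of 5 and 5 of 5, with sums of 15.49 to 15.78 against 16.10 to 16.34 (SETD2 KD) and 15.31 to 15.65 against 16.14 to 16.31 (WT). Of 5 fibroblast markers, 0 were higher under SETD2 KD and 4 under WT (0 and 0 without the 5 libraries), with sums of 13.39 to 14.98 against 12.59 to 14.40 (SETD2 KD) and 14.21 to 17.05 against 12.34 to 14.59 (WT). Of 5 endothelial markers 1 was higher under each label, of 3 pan-leukocyte markers 2 and of 5 neutrophil markers 0. The pan-leukocyte count was 2 (SETD2 KD) and 1 (WT) without the 5 libraries. Of 2 B cell markers tested, Cd79a was lower under SETD2 KD (-0.82 ± 0.28, limma adjusted p = 0.0364, or -0.34 without the 5 libraries). Cd79b was higher under WT (0.40 ± 0.15, adjusted p = 0.0488), a call that ended without the 5 libraries (adjusted p = 0.134). The part of these cell types in the Zbp1 result was not tested.

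The genes most like Zbp1 across the 24 libraries, after each group's mean was removed, were Ctsw (Pearson r = 0.914), a protease of cytotoxic lymphocytes, and the interferon-inducible GTPase genes Irgm1 (0.895) and Ifi47 (0.884). These libraries share tumour composition and scaling, so the values are descriptions. The low VE822 library SETD2 KD VE822 5 also had the lowest summed T cell level of its group, 8.61. Library SETD2 KD VE822 4, which resembled untreated tumours in Igf2, had Zbp1 at 10.84 and the group's highest T cell sum, 9.58. The highest untreated library for Zbp1, WT untreated 1 at 10.26, had the highest untreated T cell sum, 8.38, and the highest untreated Cxcl9, 8.97.

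**Figure D2:**
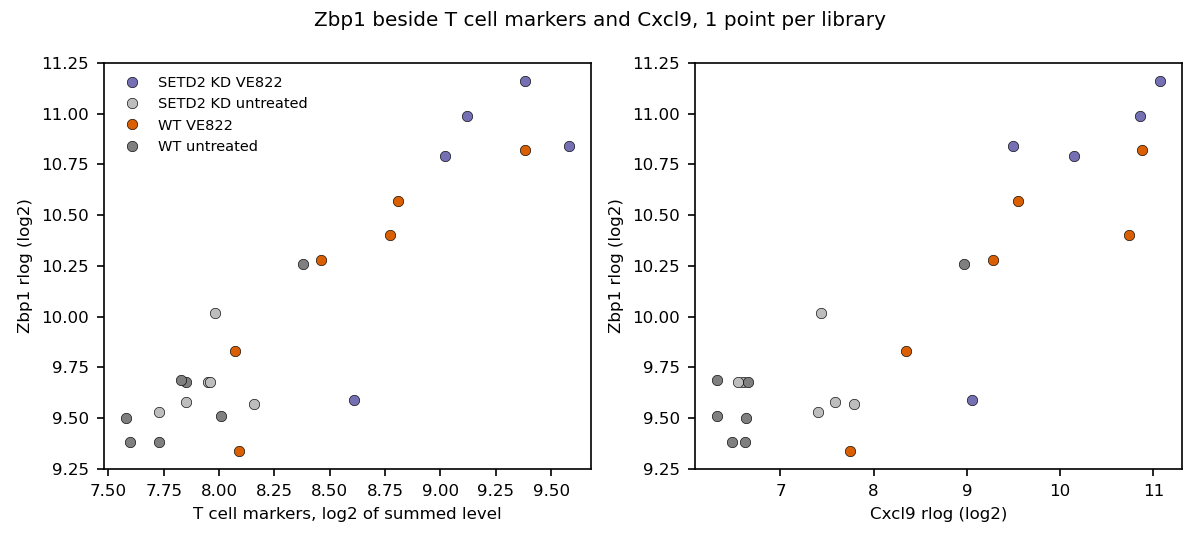
Zbp1 (vertical axes, rlog) against the summed level of 7 T cell markers (left, log2 of the sum) and against Cxcl9 (right, rlog) in 24 Renca libraries, 1 point each, coloured by labelled group. Most VE822 libraries lie to the upper right of the untreated ones, SETD2 KD VE822 5 sits low in both panels for its group, and SETD2 KD untreated 6 has its group's highest T cell sum (8.16) with Zbp1 at 9.57.

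Cgas (ENSMUSG00000032344), the DNA sensor that makes cGAMP, was higher with VE822 under both labels without passing the test. It was 5.82, 5.91, 6.10, 6.21 and 6.60 in SETD2 KD VE822 libraries, against 5.45, 5.87 and 6.10 (lowest, median and highest) in SETD2 KD untreated ones. The 2 highest VE822 libraries were above every untreated one and the rest overlapped. The difference was 0.34 ± 0.13 (95% interval 0.07 to 0.60, limma adjusted p = 0.0623). It passed without SETD2 KD VE822 1 (adjusted p = 0.0275), SETD2 KD VE822 3 (0.0468) or SETD2 KD untreated 6 (0.0326). Over all 11 libraries left out, the range was 0.22 to 0.41, and the highest Cgas value, 6.60, belongs to the library that stood apart. The difference was 0.22 without the 5 libraries that stood apart (adjusted p = 0.207), 0.21 with library weights (0.172) and 0.19 with quantile normalisation (0.266), and it passed at 0.36 with the median of genes within 5 Mb removed (0.0436).

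In WT libraries Cgas was 5.99, 6.19 and 6.25 with VE822, against 5.77, 5.94 and 6.28 untreated. All 6 VE822 libraries were above the untreated mean and none was above the highest untreated library. The difference was 0.20 ± 0.12 (limma adjusted p = 0.208). It was 0.11 without the 5 libraries that stood apart (adjusted p = 0.596) and 0.02 with quantile normalisation (0.905). The genes most like Cgas were Lyn (r = 0.855), Nid2 (0.853) and Fgd2 (0.850), and these values were 0.792, 0.782 and 0.784 without SETD2 KD VE822 4.

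Tmem173 (ENSMUSG00000024349), which encodes STING, differed little between groups. It was 11.24, 11.62, 11.68, 11.70 and 11.83 in SETD2 KD VE822 libraries, against 11.46, 11.62 and 11.92 untreated, and 11.38, 11.52 and 11.58 in WT VE822 libraries, against 11.44, 11.54 and 11.65 untreated. Its groups overlapped under each label. The VE822 differences were -0.06 ± 0.08 (95% interval -0.22 to 0.11, limma adjusted p = 0.675) for SETD2 KD and -0.02 ± 0.07 (-0.18 to 0.13, adjusted p = 0.848) for WT. Larger changes than these bounds are outside the intervals. The lowest value, 11.24, was again SETD2 KD VE822 4. Closest to Tmem173 were Tpra1 (r = 0.860), Clec11a (0.846) and Chmp7 (0.825), at 0.758, 0.706 and 0.655 without that library.

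Tbk1 (ENSMUSG00000020115), the kinase that STING recruits, fell in WT libraries. It was 10.33, 10.52 and 10.70 (lowest, median and highest) with VE822, against 10.65, 10.75 and 10.79 untreated. Of 6 VE822 libraries, 5 were below every untreated one. The difference was -0.22 ± 0.05 (limma adjusted p = 0.00155), which held without each of the 13 libraries in turn.

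In SETD2 KD libraries Tbk1 was 10.49, 10.53, 10.56, 10.60 and 10.68 with VE822, against 10.55, 10.72 and 10.79 untreated. The groups overlapped and all 5 VE822 libraries were below the untreated mean. The difference was -0.13 ± 0.05 (limma adjusted p = 0.0780), and without SETD2 KD VE822 4 it was -0.16 (adjusted p = 0.0335). It also passed without SETD2 KD untreated 5 (-0.16, adjusted p = 0.0323) and without the 5 libraries that stood apart (-0.16, adjusted p = 0.0112). With library weights it passed at -0.13 (adjusted p = 0.0415). The interaction was 0.08 ± 0.07 (adjusted p = 0.731). Of the 3 genes closest to Tbk1, Zfp715 (r = 0.868), Zfc3h1 (0.788) and Stat6 (0.769), the last pair lies on chromosome 10.

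The fall in Tbk1 was no larger than that of its chromosome. Tbk1 spans chr10:121546455-121586787 (GRCm38, minus strand), and on chromosome 10 the 476 genes whose mean rlog reached 8 had a median VE822 difference of -0.19 (SETD2 KD) and -0.26 (WT), with 86.3% and 89.5% of them lower. The 27 such genes within 5 Mb of Tbk1 had medians of -0.20 and -0.27, with 92.6% and 96.3% lower. With the neighbours' median removed from each library, Tbk1 differed by 0.09 (SETD2 KD, limma adjusted p = 0.229) and 0.08 (WT, adjusted p = 0.203). With chromosome medians removed it differed by 0.05 (adjusted p = 0.510) and 0.04 (adjusted p = 0.529). Relative to the genes around it, Tbk1 was therefore not shown to fall. Library SETD2 KD VE822 4 had Tbk1 at 0.04 above its mean over all libraries and its chromosome 10 median at 0.13 above, like untreated tumours. For the other 6 core genes, the neighbours' median difference lay between -0.07 and 0.09.

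**Figure D3:**
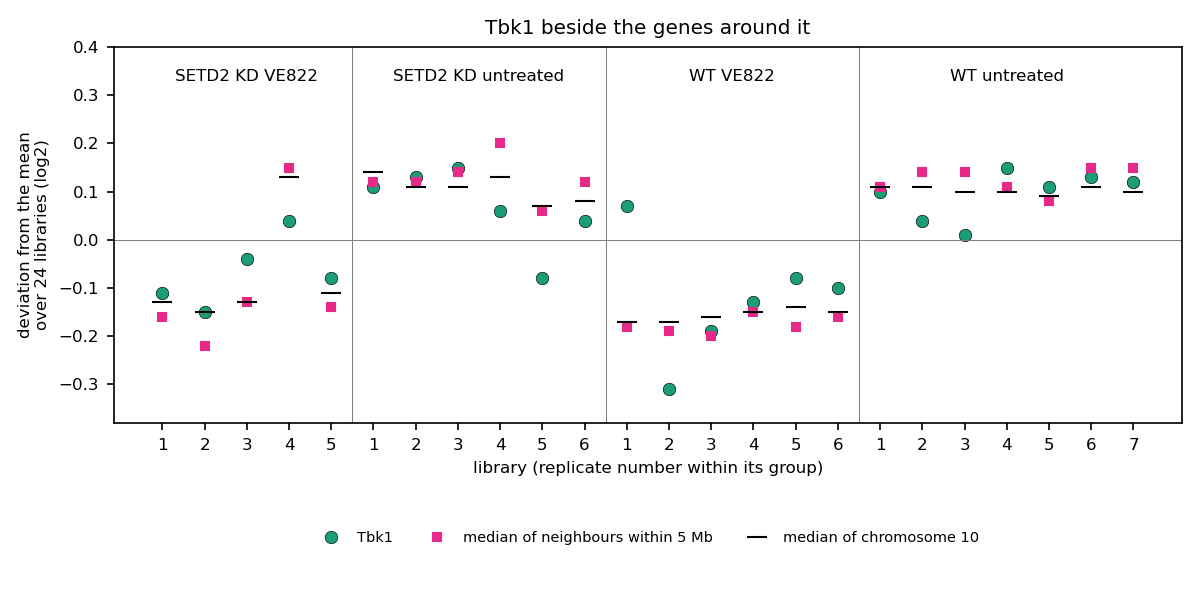
Deviation of Tbk1 (circles), of the median of its 27 neighbours within 5 Mb (squares) and of the chromosome 10 median (bars) from their means over 24 libraries, in log2 units, by library and labelled group. VE822 libraries other than SETD2 KD VE822 4 have chromosome 10 medians of -0.17 to -0.11, and every untreated library has one of 0.07 to 0.14.

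Ikbke (ENSMUSG00000042349), the kinase relative of Tbk1, was 9.26, 9.32, 9.49, 9.51 and 9.61 in SETD2 KD VE822 libraries, against 8.94, 9.18 and 9.56 untreated, and 9.03, 9.27 and 9.37 in WT VE822 libraries, against 9.01, 9.28 and 9.85 untreated. Its groups overlapped, with differences of 0.19 ± 0.13 (limma adjusted p = 0.311) and -0.09 ± 0.12 (adjusted p = 0.594). Bcl3, an NF-kB cofactor, Clip2 and Dync1i2 were the genes most like it (r = 0.805, 0.797 and 0.772). Irf3 (ENSMUSG00000003184), the transcription factor at the end of the cascade, lay between 9.80 and 10.02 in SETD2 KD VE822 libraries and 9.71 and 10.02 in SETD2 KD untreated ones. In WT libraries it lay between 9.71 and 10.00 with VE822 and 9.86 and 10.11 untreated. The Irf3 groups overlapped, with differences of -0.01 ± 0.06 (adjusted p = 0.944) and -0.09 ± 0.06 (adjusted p = 0.243). Apex2 (r = 0.812), Gm37469 (0.800) and Tmem39b (0.795) were most like Irf3.

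Aim2 (ENSMUSG00000037860), the inflammasome DNA sensor, was 8.30, 8.88, 8.96, 9.02 and 9.07 in SETD2 KD VE822 libraries, against 8.83, 8.93 and 9.05 untreated. The low value was SETD2 KD VE822 4, and without the 5 libraries that stood apart the difference was 0.06 in place of -0.08 ± 0.12 (limma adjusted p = 0.659 and 0.685). In WT libraries it was 8.70, 9.01 and 9.33 with VE822, against 8.49, 8.82 and 8.93 untreated. The upper 3 VE822 libraries were above every untreated one, and the difference was 0.22 ± 0.11 (adjusted p = 0.127). Exoc5, Hoxc4 and Ocln were most like Aim2 (r = 0.881, 0.876 and 0.863, or 0.811, 0.762 and 0.759 without that library). Within groups, Aim2 ran against Zbp1 (r = -0.47) and Cgas (r = -0.51, or -0.23 without SETD2 KD VE822 4), and Tmem173 ran with Ikbke (r = 0.58), over 24 libraries that share scaling and composition.

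**Figure D4:**
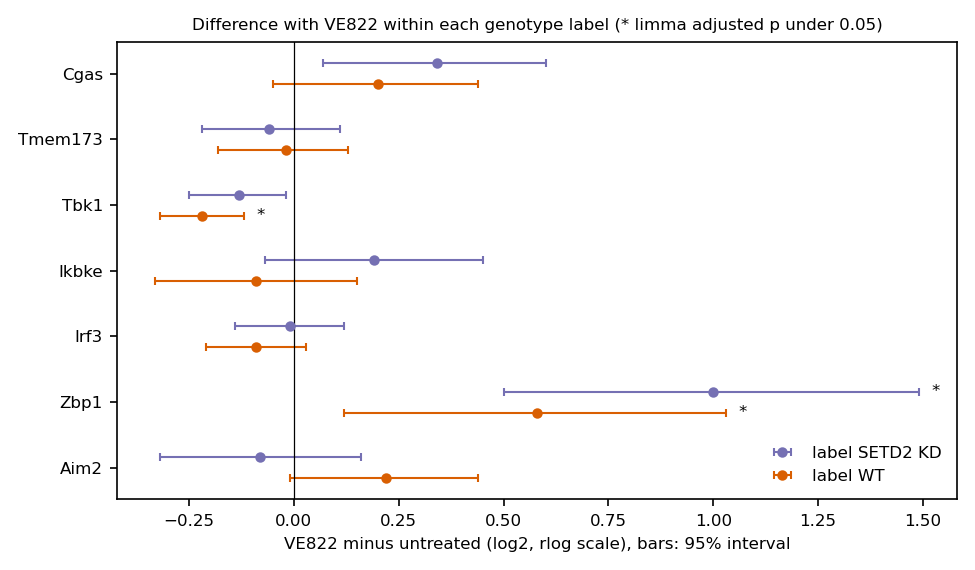
VE822 minus untreated for the 7 mouse genes within each genotype label, in log2 units on the rlog scale, with 95% intervals from limma, SETD2 KD above WT for each gene. Asterisks mark adjusted p under 0.05: Zbp1 under both labels and Tbk1 under WT.

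Non-overlap of whole groups was seen for 0 of the 7 genes in either VE822 comparison, where 11.2% (SETD2 KD) and 14.1% (WT) of all tested genes did not overlap. The median VE822 difference of the 7 was -0.01 and -0.02, beside 0.01 and 0.01 over all genes tested. Comparing genotype labels, 0 of the 7 were called in SETD2 KD VE822 against WT VE822, where limma called 2 genes (0.0126%), 1 in each direction (0.00628% each). SETD2 KD VE822 and WT VE822 libraries differed by 0.47 ± 0.24 in Zbp1 (adjusted p = 0.415). None of the 7 was called in SETD2 KD untreated against WT untreated, where limma called 0 genes (0%), with 512 (3.22%) at an unadjusted p under 0.05 and 11 called with library weights. None was called in the interaction of label and drug, where limma called 0 genes (0%) and 1452 (9.12%) had an unadjusted p under 0.05.

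SETD2 KD VE822 tumours were also set against WT untreated ones, which differ in drug and label together. Zbp1 was 1.05 ± 0.23 higher (limma adjusted p = 0.00186) and Tbk1 was 0.16 ± 0.05 lower (-0.16, adjusted p = 0.0262). This is 1 of 7 in each direction, where 24.4% of all genes were called, 12.1% higher and 12.4% lower. Without SETD2 KD VE822 1, 2 or 5 the Tbk1 call ended (adjusted p = 0.0595, 0.0812 and 0.0556). Without the 5 libraries that stood apart, or without SETD2 KD VE822 4 alone, Tmem173 passed at 0.20 and 0.18 (adjusted p = 0.0304 and 0.0388), against 0.09 ± 0.08 (adjusted p = 0.478) with all libraries.

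In WT VE822 against SETD2 KD untreated, Cgas was 0.35 ± 0.12 higher (limma adjusted p = 0.0330) and Tbk1 lower by -0.19 ± 0.05 (adjusted p = 0.00657). The background was 31.3% of genes, 15.6% higher and 15.8% lower. The Cgas call ended with no filter on low values (adjusted p = 0.0527) and without WT VE822 1, 2, 4 or 5 or SETD2 KD untreated 1 or 4 (adjusted p up to 0.0937). It also ended without the 5 libraries that stood apart (0.28, adjusted p = 0.143) and with quantile normalisation (0.15, adjusted p = 0.342). Zbp1 was 0.53 ± 0.23 higher without passing (adjusted p = 0.0809), and passed without WT VE822 3 (0.70, adjusted p = 0.0164), with chromosome medians removed (0.61, adjusted p = 0.0484) and with library weights (0.63, adjusted p = 0.0378). Tmem173 passed without the 5 libraries that stood apart (-0.21, adjusted p = 0.0461), against -0.16 ± 0.08 (adjusted p = 0.111) with them. These comparisons share libraries with one another.

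Genes around the core were read from lists that were drawn up by role. The shares of all genes against which each count stands are 10.6% higher and 11.6% lower in SETD2 KD libraries, and 17.2% higher and 17.5% lower in WT libraries, with a median difference of 0.01 in each. With the 5 libraries that stood apart left out, 2420 genes were higher and 2337 lower (SETD2 KD), and 2227 higher and 2326 lower (WT), of 15916. Values of list genes are given without chromosome shifts removed. This limits every list gene on chromosome 10, whose median differences were -0.19 (SETD2 KD) and -0.26 (WT). Of 20 other DNA sensors and cofactors tested, 5 were higher and 3 lower with VE822 in SETD2 KD libraries, and 2 higher and 7 lower in WT libraries, with list medians of 0.02 and -0.09. These counts were 3 and 5 (SETD2 KD) and 1 and 7 (WT) without those libraries, and the calls of Ifi203, Mndal and, in WT, Ifi205 ended (adjusted p = 0.0701, 0.0949 and 0.0711). The PYHIN gene Ifi205, a relative of Aim2 and of human IFI16, rose by 0.95 ± 0.20 (limma adjusted p = 0.00117) and 0.70 ± 0.18 (adjusted p = 0.00409). It was 6.27, 6.55 and 7.01 in SETD2 KD VE822 libraries (lowest, median and highest), against 5.28, 5.72 and 5.77 untreated, and 6.0, 6.32 and 7.22 in WT VE822 libraries, against 5.34, 5.55 and 6.45 untreated. The SETD2 KD groups did not overlap and the WT groups did. Ifi203 and Mndal, of the same family, rose by 0.32 each in SETD2 KD libraries (adjusted p = 0.0264 and 0.0466), and their WT differences were -0.06 and 0.14 (adjusted p = 0.677 and 0.318). PYHIN genes are near-identical in part, so reads may be shared between them. Tlr9, the endosomal DNA receptor, rose by 0.73 ± 0.20 in SETD2 KD libraries (adjusted p = 0.00904), and its WT difference was 0.40 ± 0.18 (adjusted p = 0.0863). Prkdc encodes the catalytic subunit of a DNA end-binding kinase, and Polr3b a subunit of the polymerase that transcribes cytosolic DNA. They differed by -0.52 ± 0.09 and -0.33 ± 0.09 in WT libraries (adjusted p = 1.88e-04 and 0.00468). In SETD2 KD libraries they were at -0.23 and -0.09 without passing (adjusted p = 0.109 and 0.562). Without the 5 libraries that stood apart, both passed there (-0.34 and -0.21, adjusted p = 0.00764 and 0.0114). Ddx41, a helicase reported to bind DNA, rose by 0.16 ± 0.05 and 0.23 ± 0.05 (adjusted p = 0.0257 and 5.4e-04).

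Among genes for cGAMP transport and breakdown, 1 of 8 rose and 2 fell with VE822 in SETD2 KD libraries, and 0 rose and 4 fell in WT libraries, with list medians of -0.19 and -0.16 beside 0.01 over all genes. In SETD2 KD libraries, 0 rose and 3 fell without the 5 libraries that stood apart, where the Lrrc8c call ended (adjusted p = 0.0789) and Lrrc8d passed (-0.22, adjusted p = 0.00472), and the WT counts stayed at 0 and 4. Slc19a1, a cGAMP importer, fell by 0.56 ± 0.12 and 0.33 ± 0.11 (limma adjusted p = 0.00119 and 0.0191). Enpp3, a cGAMP hydrolase, fell by 0.79 ± 0.16 and 0.42 ± 0.15 (adjusted p = 0.00112 and 0.0311). Enpp3 lies on chromosome 10, whose median difference with VE822 was -0.19 (SETD2 KD) and -0.26 (WT). Positions of Slc19a1 and the other list genes are not given. Chromosome shifts were not removed from these values or from the list medians. Abcc1, a cGAMP exporter, and the channel subunit gene Lrrc8d fell in WT libraries by 0.22 ± 0.08 and 0.21 ± 0.06 (adjusted p = 0.0342 and 0.0114), against differences of -0.21 and -0.17 that did not pass in SETD2 KD libraries. Lrrc8c, a channel subunit through which cGAMP passes, rose by 0.48 ± 0.16 in SETD2 KD libraries (adjusted p = 0.0305). Its WT difference was 0.23 ± 0.14 (adjusted p = 0.235).

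Of 16 genes for STING cofactors, traffic and brakes, 1 rose and 1 fell in SETD2 KD libraries and 1 rose and 4 fell in WT libraries, with medians of 0.01 and -0.05. These counts were 3 and 2 (SETD2 KD) and 1 and 3 (WT) without the 5 libraries that stood apart. Usp18, an interferon-induced protease of the USP family, rose by 0.42 ± 0.11 and 0.48 ± 0.10 (limma adjusted p = 0.00875 and 8.55e-04). Usp20 encodes a STING deubiquitinase and Sec24c a coat protein of vesicles that leave the endoplasmic reticulum. Both fell in WT libraries, by 0.31 ± 0.06 and 0.28 ± 0.05 (adjusted p = 6.36e-04 and 3.54e-04). Their SETD2 KD differences were -0.14 and -0.00 (adjusted p = 0.148 and 0.997). Without the 5 libraries Usp20 passed under SETD2 KD (-0.20, adjusted p = 0.0155). Of 10 adaptors of TBK1 and IKK-epsilon, 1 rose and 1 fell under SETD2 KD, and 1 and 3 under WT. Tbkbp1 rose by 0.43 ± 0.10 and 0.48 ± 0.09, and Optn fell by 0.43 ± 0.09 and 0.34 ± 0.08 (adjusted p = 0.00228, 2.1e-04, 0.00119 and 0.00242). Traf3 and Ikbkg fell in WT libraries by 0.28 ± 0.07 and 0.18 ± 0.05, and were at -0.16 and -0.05 under SETD2 KD (adjusted p = 0.114 and 0.528).

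Of 10 downstream transcription factors, 5 were higher and 1 lower in SETD2 KD libraries, where 10.6% and 11.6% of all genes were. In WT libraries 1 was higher and 2 lower, where 17.2% and 17.5% of all genes were. The list medians were 0.27 and 0.08 beside 0.01 over all genes. With those 5 libraries left out, 4 were higher and 1 lower (SETD2 KD) and 0 higher and 2 lower (WT), and the calls of Irf8 under SETD2 KD and Irf5 under WT ended (limma adjusted p = 0.0571 and 0.117). Irf1, an interferon-induced factor, rose by 0.63 ± 0.12 under SETD2 KD (limma adjusted p = 7.34e-04), and its WT difference was 0.14 ± 0.11 (adjusted p = 0.352). Irf5 rose under both, by 0.51 ± 0.13 and 0.38 ± 0.12. Irf8, a factor of dendritic cells and macrophages, rose by 0.29 ± 0.09 under SETD2 KD (adjusted p = 0.0285), and Stat2, a factor of the interferon response, fell by 0.32 ± 0.09 under WT (adjusted p = 0.0105). No gene passed the interaction, so a difference between labels was not shown. Stat6, on chromosome 10, fell by 0.24 ± 0.04 and 0.39 ± 0.04, where the chromosome's median differences were -0.19 and -0.26. Positions of Stat2 and the other factors are not given, and chromosome shifts were not removed from these values.

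Of the 13 pathway outputs tested, 5 rose and 0 fell under each label, namely Cxcl9, Cxcl10, Cxcl11, Ccl5 and Oas1a, against 10.6% (SETD2 KD) and 17.2% (WT) of all genes higher. The list medians were 0.15 and 0.19. Under SETD2 KD 4 rose and 0 fell without the 5 libraries that stood apart, where the Ccl5 call ended (limma adjusted p = 0.0541). Under WT 3 rose and 1, Ifit1, fell (-0.46, adjusted p = 0.0376), and the calls of Cxcl10 and Cxcl11 ended (0.78 and 0.43, adjusted p = 0.104 and 0.266). The T cell chemokine Cxcl9 was 9.05, 9.49, 10.15, 10.86 and 11.07 in SETD2 KD VE822 libraries, against 6.55, 7.42 and 7.79 untreated. It was 7.75, 9.41 and 10.88 in WT VE822 libraries, against 6.32, 6.62 and 8.97 untreated. The SETD2 KD groups did not overlap and the WT groups did. The differences were 2.90 ± 0.52 and 2.57 ± 0.48 (limma adjusted p = 3.23e-04 and 2.39e-04). Cxcl10, whose promoter is shown above, rose by 1.63 ± 0.30 and 1.07 ± 0.28 (adjusted p = 4.34e-04 and 0.00445). Of the 4 other genes with an ISRE core, Oas1a rose by 0.22 ± 0.06 and 0.19 ± 0.05, whereas Isg15 was at 0.03 and 0.19, Ifit1 at 0.08 and -0.25 and Ifit3 at 0.15 and 0.05, none past the threshold. Those 3 are named after their values were seen. Ifnb1 had a mean under 3 and was not tested. The T cell, NK and dendritic cell markers given beside Zbp1 rose in the same comparisons, and their part in these outputs was not tested.

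Among 11 partners of AIM2 and ZBP1, 1 rose and 3 fell under each label, against 10.6% and 11.6% of all genes (SETD2 KD) and 17.2% and 17.5% (WT). The list medians were 0.03 and 0.02. Leaving out the 5 libraries that stood apart gave 1 and 3 under SETD2 KD and 1 and 4 under WT. Pycard, the inflammasome adaptor ASC, rose by 0.34 ± 0.10 and 0.33 ± 0.09 (limma adjusted p = 0.0110 and 0.00565). Gsdmd, the pore protein of pyroptosis, fell by 0.43 ± 0.06 and 0.24 ± 0.06 (adjusted p = 5.07e-05 and 0.00300). Casp1 fell by 0.20 ± 0.06 and 0.40 ± 0.06, and Mlkl, the necroptosis effector downstream of ZBP1, by 0.26 ± 0.08 and 0.51 ± 0.08. Of 6 cytosolic RNA sensing genes, 0 rose, and 1 (SETD2 KD) and 2 (WT) fell. The adaptor Mavs was among them under both labels, at -0.22 ± 0.07 and -0.29 ± 0.06 (adjusted p = 0.0211 and 0.00122), and Ifih1, which encodes the RNA sensor MDA5, was at -0.33 ± 0.11 in WT (adjusted p = 0.0252). Without the 5 libraries the Mavs call ended in WT (-0.16, adjusted p = 0.0918).

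In 786-O cells the CHK1 inhibitor changed 3 of the 8 genes by the test, 2 higher and 1 lower, where limma called 13.2% of 29353 genes, 7.05% higher and 6.16% lower. This background takes in scarce genes. Once these were filtered out, leaving 12731 genes whose mean reached 5, limma called more than the 3878 of the full set. That count is given with the processing alternatives. An excess of calls among the 8 genes was therefore not shown. IFI16 and MB21D1 rose and IKBKE fell. Recovered totals were 21447859 and 20834400 counts with the inhibitor, against 23956007 and 23492424 untreated. The groups did not overlap on the deposited scale for 7 of the 8 genes, TBK1 being the exception. Over all genes tested 52.4% did not overlap, and 77.0% of the 12731 with a mean of at least 5. The 7 T cell markers summed to 1 to 5 counts in a library.

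IFI16, a DNA sensor of the PYHIN family, had 2946 and 3162 recovered counts with the inhibitor, against 1413 and 1466 untreated, or 137 and 152 against 59.0 and 62.4 once scaled by library total to CPM. The mean was 145 ± 10.2 CPM with the inhibitor and 60.7 ± 2.42 untreated (SD, n = 2 each), a ratio of 2.38. The log2 difference was 1.30 ± 0.08 (limma adjusted p = 0.0232). The call ended without either untreated library (adjusted p = 0.102 and 0.106) while the value stayed between 1.22 and 1.37.

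MB21D1, the cGAS gene, had 876 and 911 counts with the inhibitor, against 623 and 510 untreated, which is 42.3 ± 2.04 and 23.9 ± 3.04 CPM (SD, n = 2 each). Its log2 difference was 0.87 ± 0.13 (limma adjusted p = 0.0390). IKBKE had 264 and 255 counts, against 660 and 559, or 12.3 ± 0.0492 and 25.7 ± 2.66 CPM. Its log2 difference was -0.98 ± 0.12 (adjusted p = 0.0289). Both calls ended without any 1 of the 4 libraries (adjusted p up to 0.230 and 0.182), in fits with 1 residual degree of freedom, and the differences stayed at 0.73 to 1.02 and -1.10 to -0.86. Without a mean-variance trend the calls of IFI16, MB21D1 and IKBKE all ended, and 0 of 29353 genes were called.

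TMEM173 was scarce, with 54 and 56 counts with the inhibitor, against 118 and 163 untreated, or 2.60 ± 0.120 and 5.93 ± 1.42 CPM. Its log2 difference of -1.0 ± 0.19 just missed the threshold (limma adjusted p = 0.0565). IRF3 had 1858 and 1938 counts, against 1695 and 1719, or 89.8 ± 4.52 and 72.0 ± 1.71 CPM. Its difference of 0.37 ± 0.07 had an adjusted p of 0.0555. Both passed among genes with a mean of at least 5 (adjusted p = 0.00936 for TMEM173 and 0.0173 for IRF3) and with quantile normalisation (0.0442 and 0.0487). Neither passed on log2 CPM, with no variance trend or without any 1 of the 4 libraries. TBK1 had 536 and 559 counts, against 692 and 659, a difference of -0.08 ± 0.09 (95% interval -0.33 to 0.17, adjusted p = 0.527).

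ZBP1 had 3 and 1 counts with the inhibitor, against 0 and 0 untreated, and AIM2 had 1 and 1, against 0 and 0. These are at or under the 3 counts that a count of 0 allows, so no fold is given. In Renca tumours, by contrast, Zbp1 and Aim2 were measured in every library. The 2 systems differ in species, in tumour against culture and in inhibitor, and were not tested against each other.

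**Figure D5:**
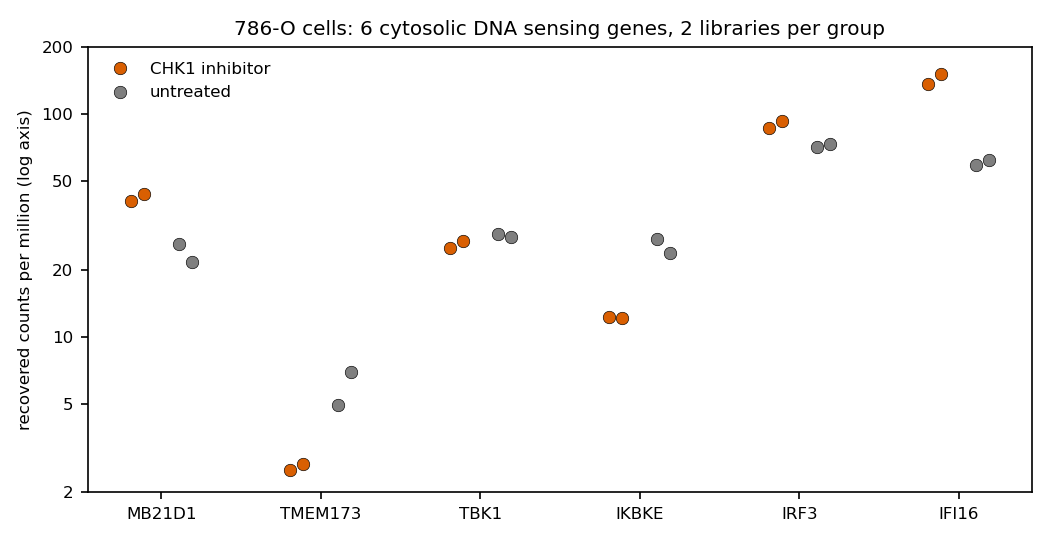
Recovered counts scaled by library total (CPM), on a log axis, of 6 human genes in 786-O cells with the CHK1 inhibitor (left of each pair) and untreated (right), 2 libraries each. IFI16, MB21D1 and IRF3 sit higher with the inhibitor, TMEM173 and IKBKE lower, and TBK1 at 25.0 and 26.8 against 28.9 and 28.1. ZBP1 and AIM2, at 3 counts or fewer, are not drawn.

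Around the human core, each count stands beside 7.05% of all genes higher and 6.16% lower, and a median difference of 0.08. These shares also run over scarce genes, and the share called was larger without them. A list count above these shares therefore does not show an excess of calls. IL6, an NF-kB target, was the 1 of 13 pathway outputs that rose, with 276 and 277 counts with the inhibitor, against 59 and 49 untreated (2.37 ± 0.14, limma adjusted p = 0.0232). IFNB1 had 4 and 1 counts, against 0 and 0, CXCL10 had 1 and 3, against 0 and 1, and CCL5 had 16 and 10, against 5 and 4. ISG15 had 453 and 277, against 356 and 290. These 4 did not pass and are named after their values were seen. Among downstream transcription factors RELA rose by 0.72 ± 0.08, whereas STAT2 differed by -1.01 ± 0.18 (adjusted p = 0.0255 and 0.0495).

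Of 15 STING cofactors and brakes, 0 rose and 5 fell (7.05% and 6.16% of all genes), with a list median of -0.23, including ULK1 at -1.16 ± 0.09, DTX4 at -1.03 ± 0.15, NLRX1 at -0.66 ± 0.07 and TRIM56 at -0.58 ± 0.07 (limma adjusted p = 0.0232, 0.0378, 0.0269 and 0.0312). ULK1 and NLRX1 restrain STING signalling, while DTX4 promotes TBK1 breakdown and TRIM56 modifies STING and cGAS. Of 16 other DNA sensors and cofactors, 3 rose and 2 fell, with a median of 0.07. POLR3A rose by 1.57 ± 0.17, PQBP1, a cofactor of cGAS, by 1.01 ± 0.12 and ZCCHC3, another cGAS cofactor, by 0.43 ± 0.08. The Ku subunits XRCC5 and XRCC6 fell by 0.54 ± 0.05 and 0.44 ± 0.08. LRRC8E was the 1 of 8 cGAMP transport genes that rose (1.12 ± 0.20, adjusted p = 0.0495).

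Of 10 adaptors of TBK1, CHUK rose by 0.56 ± 0.07 and OPTN fell by 0.45 ± 0.07 (limma adjusted p = 0.0320 and 0.0417). Of 10 inflammasome and necroptosis partners, NLRP3 rose by 1.88 ± 0.34, and GSDMD and IL18 fell by 0.79 ± 0.08 and 0.67 ± 0.12 (adjusted p = 0.0495, 0.0254 and 0.0495). Of 6 RNA sensing genes, TLR3 and MAVS fell, with differences of -1.45 ± 0.19 and -1.18 ± 0.06 (adjusted p = 0.0313 and 0.0232). The whole comparison called 0 genes without either untreated library, and 3633 or 4658 without inhibitor library 1 or 2, a limit that these list members share with the 3 core calls.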

How the data were processed

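RNA sequencing of 28 libraries in 6 groups was used, grouped from the sample titles alone. The authors deposited regularised log2 values (rlog) for 24 mouse libraries and variance-stabilised log2 values for 4 human libraries. Per the submitters' processing notes, the authors used FastQC, TopHat, HTSeq and DESeq2 with the builds hg38 and GRCm38. These notes name no version and no strand setting, so overlapping genes may share reads. Human counts were recovered by inverting the transform (floor 2.47, 100% whole within 0.1). Replicates differed beyond sampling noise, with a chi-square per degree of freedom of 14.9 and 14.7. Mouse depth is unknown.

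Differences were fitted on the deposited values with limma 3.58.1 in R 4.3.3, with group means over all libraries of a species and a mean-variance trend. Benjamini-Hochberg adjustment ran over the 15916 mouse genes whose mean rlog reached 3 or the 29353 human genes that vary, with a threshold of 0.05. The scripts were tested on simulated data. Genes were named from GENCODE vM21, which matched 97.97% of mouse rows.

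The genes described, the lists around them and the tests were chosen with earlier results of these data known. By rule, the text names every core gene, up to 4 called genes per list with the largest change, the 3 genes most alike for each core gene and Setd2, and says where a gene falls outside it. A few genes that this rule names are not reported here. Alternatives were other filters, normalisations, library weights, leaving out libraries, and removing chromosome or neighbour medians. The neighbour removal and the choice of 5 libraries that stood apart were made after seeing the data, and the neighbour removal was run for the core genes only.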

Additional observations from a re-analysis of the deposited data

Results flagged for a closer look

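Within 28 sets of libraries (7 mouse genes in 4 groups), 5 held 1 library far from the others of its group, by a gap to its nearest neighbour above 0.71, 0.625 or 0.568 of the group's range for 5, 6 or 7 libraries. Chance alone gives about 1 such set in 20. For Zbp1, library SETD2 KD VE822 5 was low at 9.59, and libraries SETD2 KD untreated 5 and WT untreated 1 were high at 10.02 and 10.26. Library WT untreated 1 was also high for Cgas, at 6.28. Library SETD2 KD VE822 4 was low for Aim2, at 8.30.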

How the results depend on the processing

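Over 57 values of core genes, 1060 of 1183 recomputed values kept direction and side of the threshold and 61 turned direction. A further 38 lost a call and 24 gained one without turning. Of the 61 that turned, 6 also lost a call. No value that turned passed the test, and the largest was 0.12 in size. Differences below are log2, and causes were not tested. With quantile normalisation, Tmem173 in WT and Irf3 in SETD2 KD tumours turned to 0.01 each with VE822, and Cgas to 0.05 between SETD2 KD VE822 and WT VE822. With chromosome medians removed, Tbk1 turned to 0.05 (SETD2 KD) and 0.04 (WT) with VE822, -0.02 between SETD2 KD VE822 and WT VE822, 0.02 between SETD2 KD VE822 and WT untreated and 0.07 between WT VE822 and SETD2 KD untreated, Irf3 to 0.00 (SETD2 KD) and Ikbke to 0.02 (WT VE822 against SETD2 KD untreated). With neighbours within 5 Mb removed, the same 5 values of Tbk1 were 0.09, 0.08, -0.02, 0.06 and 0.11, Tmem173 was 0.00 and Irf3 0.01 (SETD2 KD), Ikbke 0.02 (WT VE822 against SETD2 KD untreated) and the Tmem173 interaction 0.02. With library weights, Tmem173, Irf3 and Aim2 in SETD2 KD tumours were 0.01, 0.00 and 0.06, Aim2 between SETD2 KD VE822 and WT VE822 was 0.04, and the interactions of Cgas, Tmem173 and Zbp1 were -0.03, 0.03 and -0.01. Without the 5 libraries that stand apart, Tmem173, Irf3 and Aim2 in SETD2 KD tumours were 0.04, 0.01 and 0.06, Ikbke in WT 0.00, Irf3 and Aim2 between SETD2 KD VE822 and WT VE822 -0.01 and 0.12, Ikbke between untreated labels 0.03, Irf3 and Aim2 between WT VE822 and SETD2 KD untreated 0.02 and -0.06, and the Tmem173 interaction 0.08.

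Leaving out single libraries gave these ranges where a value turned: with VE822 in SETD2 KD tumours, Tmem173 -0.11 to 0.04, Irf3 -0.05 to 0.02 and Aim2 -0.13 to 0.06; in WT, Tmem173 -0.04 to 0.00 and Ikbke -0.14 to 0.00; between SETD2 KD VE822 and WT VE822, Cgas -0.13 to 0.07 and Irf3 -0.01 to 0.05; between untreated labels, Tbk1 -0.04 to 0.00, Ikbke -0.12 to 0.03 and Zbp1 -0.02 to 0.15; between WT VE822 and SETD2 KD untreated, Irf3 -0.08 to 0.00 and Ikbke -0.09 to 0.04; and the Tmem173 interaction -0.09 to 0.06. The 2 genes called between SETD2 KD VE822 and WT VE822 became 4 with no filter, 1 with quantile normalisation, 6 with chromosome medians removed, 0 with only those groups in the fit, and 2 to 46 with single libraries left out. The 0 called between untreated labels became 1 with quantile normalisation, 11 with weights, 3 with only those groups, 1 with no variance trend, 2 without the 5 libraries and 0 to 1 with single libraries left out. The 3878 called in 786-O became 6226 among genes with a mean of 5 or more, 0 with no variance trend and 0 to 4658 with single libraries left out, where the lone library of a group is taken to vary like the other pair.

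The 786-O libraries share a number that no label ties to an experiment, and deviations of same-numbered libraries correlated at 0.158 over 29353 genes and 0.511 over the 12731 with a mean of at least 5. With the number as replicate block, 5582 genes were called, against 3878, and of the 8 genes TMEM173 and IRF3 gained a call (limma adjusted p = 0.0277 and 0.0445). Mouse libraries carry no pairing. Depth limits the human values of ZBP1 and AIM2, and is unknown for the mouse values.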
